A study of Mus musculus with 8 samples.

Results

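The response of B16F1 melanoma tumours to 20 Gy was measured in wild-type hosts by comparing the 2 arrays of irradiated tumours with the 2 arrays of untreated tumours, across all 45037 non-control probe sets. These are 4 of the 8 arrays of the study, chosen by their labelled host and treatment. The other 4 arrays, from hosts lacking both TNF receptors, were not used. B16F1 is an established pigmented melanoma line of C57BL/6 origin, and per the labels' protocols its cells were injected under the skin of the right hind limb of 5 to 7 mice of each host genotype, so the number of tumours behind each pool is not given. The hosts were wild-type C57BL/6-NCr mice, 8 to 12 weeks old at the start, with intact TNF receptor genes. Tumours measured 268 to 478 mm3 when mice were divided into groups. The irradiated group received a single dose of 20 Gy of X-rays (250 kV, 15 mA) with the rest of the body behind lead, and the untreated group received none. Tumours were excised 5 h after treatment, RNA of whole tumours was combined into a pool for each group, and each pool (6 µg of total RNA) was labelled with biotin for Affymetrix Mouse Genome 430 2.0 arrays.

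The 2 arrays of a group are technical duplicates of 1 RNA pool. Their spread covers array error only and holds no variation between mice, so no p-value is given for the effect of radiation. Values are MAS5 signals, given as the mean ± SD (n = 2 technical duplicates) or for each array. Differences are irradiated minus untreated on the log2(signal + 16) scale, which understates changes of dim genes, and are given ± the SE that the duplicates provide. A gene was called higher or lower, and is said to have risen or fallen, where the difference of the means was at least 2-fold on that scale and both arrays of one pool lay above both of the other. In whole-tumour RNA, fewer cells of a type and less RNA per cell cannot be told apart.

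Ionising radiation breaks DNA, and the kinases ATM and ATR then stabilise the transcription factor p53, which induces genes for cell cycle arrest, DNA repair and apoptosis. Radiation and oxidative stress also engage AP-1, heat shock and NF-kB programmes, the last of which drives chemokines and cytokines that recruit neutrophils and monocytes. A tumour contains its own malignant cells together with vessels, fibroblasts, leukocytes and, in a hind limb, bordering muscle, and all of them contribute to the RNA measured here.

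Of 11339 genes measured above the median probe set, 281 were called higher (2.48%) and 24 lower (0.212%), 2.69% in either direction. Over all 45037 non-control probe sets, dim ones included, 1962 were higher (4.36%) and 282 lower (0.626%), 4.98% in either direction. Across the probe sets the duplicates correlated at 0.981 (untreated) and 0.975 (irradiated), against 0.971 to 0.972 between the pools. Among the tested genes 0.609% of the untreated and 0.714% of the irradiated duplicates were 2-fold apart. Whichever array was left out, 186 of the 281 higher calls and 12 of the 24 lower calls were kept. The median difference of all tested genes was -0.02, and 92.1% of the calls were higher. That split depended on the scaling: with each array centred on its own median, which moved the median of all genes by -0.258, 140 genes were higher and 114 lower (55.1% higher), and positive differences smaller than that shift turn negative. The count of lower genes was 38 without untreated array 2, 49 without irradiated array 1 and 51 without irradiated array 2. Poly-A spike-in transcripts read 1.61 to 2.11 times as high on the irradiated arrays and the later hybridisation controls 1.19 to 1.26 times, and their part in the results was not tested. The 5' to 3' ratio of actin was 0.786 and 0.731, and that of Gapdh 1.19 in both pools.

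**Figure D1:**
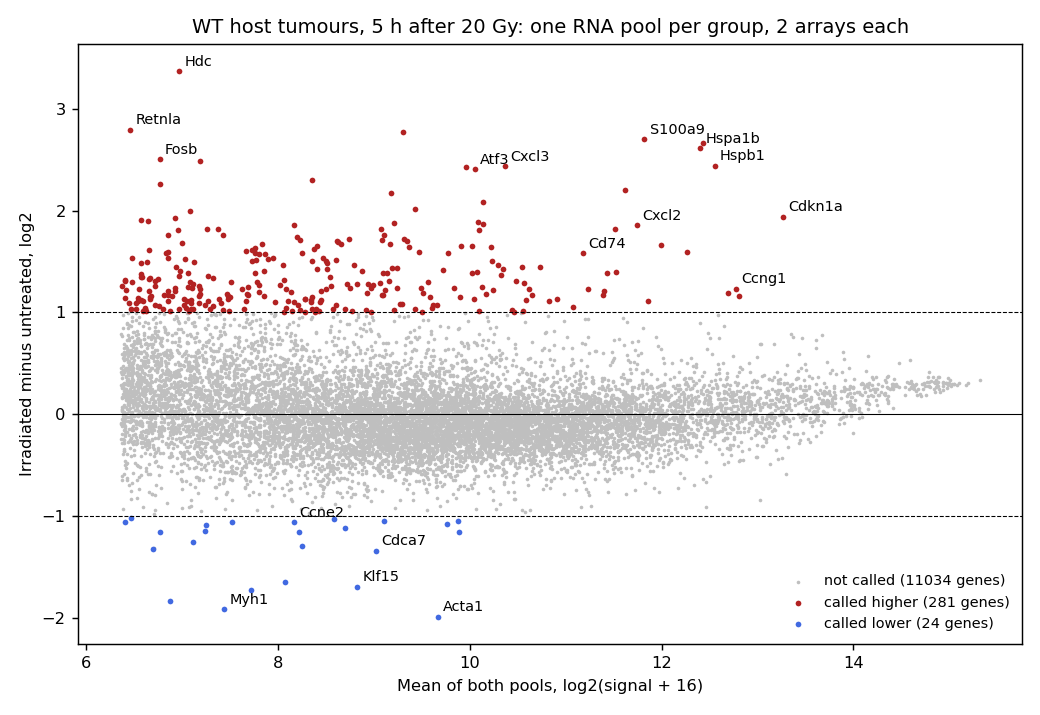
Difference between the irradiated and the untreated pool (vertical axis, log2) against the mean level (horizontal axis, log2(signal + 16)) for the 11339 genes tested. Grey points are not called, red points are the 281 genes called higher, blue points the 24 called lower, and dashed lines mark 2-fold. Points above the upper line outnumber those below the lower line.

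The labelled tumour type was borne out by its markers. All 17 measured genes of the melanocyte lineage lay above the tested level on all 4 arrays, and none was called, where 2.69% of all tested genes were (1 lower with each array centred on its median). Dct, which encodes a melanin-synthesis enzyme, read 29432 and 31640.3 on the untreated arrays and 39896 and 35034 on the irradiated arrays. Tyrp1, of the same enzyme family, went from 28884 ± 2165 to 34284 ± 4906, and the melanosome genes Pmel and Mlana from 24929 to 31082 and from 25371 to 31683. The pigment cell regulators split: Sox10 went from 10638 to 12557 and Mitf from 12313 to 8186 (difference -0.59), neither called. Of the 17 genes 10 lay below zero and 7 above, with a median of -0.19 and a lowest difference of -0.85. The summed signal of the lineage genes was 213187 to 225347 on the untreated and 220042 to 240968 on the irradiated arrays, ranges that overlap.

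Many genes induced by p53 rose in the irradiated tumours. Of 38 tested p53 targets 14 were called higher and 0 lower, against 2.48% higher among all genes, and the median difference was 0.77 against -0.02. In the group for arrest and feedback 5 of 11 were higher (3 with each array centred on its median), in the apoptosis group 5 of 11, and in the group for repair and metabolism 4 of 16. Cdkn1a, which encodes the cyclin-dependent kinase inhibitor p21, read 4990.2 and 5003 on the untreated arrays and 19462 and 19042 on the irradiated arrays. Both irradiated arrays lay far above both untreated ones, a rise of 3.84-fold (difference 1.94 ± 0.016). Ccng1, a cyclin G gene that restrains p53, read 4677 and 4423 on the untreated arrays and 10474 and 10971 on the irradiated arrays, with a difference of 1.23 ± 0.052. Mdm2, the ubiquitin ligase that degrades p53, read 1145 and 885 on the untreated arrays and 1296 and 1714 on the irradiated arrays. Its groups did not overlap, but its difference of 0.56 ± 0.27 was below 2-fold and it was not called.

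Antiproliferative targets were among the strongest. Btg2, an antiproliferative gene, read 227 and 178 on the untreated arrays and 669 and 713 on the irradiated arrays, a rise of 3.25-fold. Plk2, a polo-like kinase induced by stress, went from 289.6 ± 87.9 to 1008 ± 233 (3.38-fold higher). Trp53inp1, whose product promotes p53 activity, went from 1537 ± 69.1 to 5465 ± 117, although a dimmer probe set of this gene gave a difference of 0.72. Among the apoptosis genes, Phlda3, an inhibitor of Akt signalling, rose 3.03-fold (from 2808 ± 17.3 to 8535 ± 259). Bbc3, which encodes the BH3-only protein PUMA, read 350.1 and 301 on the untreated arrays and 805 and 834 on the irradiated arrays, a difference of 1.29 ± 0.11. Tnfrsf10b, the mouse death receptor for TRAIL, rose 2.82-fold from a dim level of 43.3 to 152. Aen, an apoptosis-enhancing nuclease, and Zmat3, an RNA-binding p53 target, differed by 1.17 ± 0.049 and 1.23 ± 0.074. The 4 apoptosis genes below the tested level were not tested: Fas, the death receptor, went from 33.6 to 91.9, Pmaip1, which encodes NOXA, from 1.95 to 46.2, Eda2r from 14.2 to 53 and Perp from 35.2 to 27.1.

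Repair and metabolic targets were divided. Ercc5, an endonuclease of nucleotide excision repair, went from 392 ± 25.5 to 1225 ± 161 (3.03-fold higher), and Sesn2, a stress-induced regulator of mTORC1, went from 489.6 ± 11.1 to 1505 ± 8.91 (3.01-fold). Slc19a2, a thiamine transporter, rose 3.14-fold and Dcxr, a xylulose reductase, 2.64-fold. In contrast, Xpc, Rrm2b, Polh and Tigar, also known p53 targets, differed by -0.24, 0.04, -0.57 and -0.52, and Sesn1 by -0.42, none called. Of 36 tested genes of DNA damage signalling and repair 0 were called in either direction. In a list of this size that is near the share over all tested genes, 2.69%. Of the 36 genes 30 lay below zero and the median was -0.17. With each array centred on its median, 2 were lower and the median was -0.43. Brca1, of homologous recombination, went from 11203 to 6233 (-0.84), Ung, a uracil glycosylase, from 526 to 291 (-0.81), and Atm from 715 to 516 (-0.46).

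Cell cycle genes were lower on average, by less than the 2-fold required for a call. Of 51 tested mitotic genes 48 had a difference below zero, with a median of -0.49, and 0 were called, against 2.69% of all tested genes. The count of lower calls was 1 when either irradiated array was left out, and 6 with each array centred on its median. Kif20a, a kinesin of cytokinesis, read 938 and 856 on the untreated arrays and 469 and 516 on the irradiated arrays (difference -0.84 ± 0.093), and Nek2, a centrosome kinase, 1588 and 1617 on the untreated arrays and 1007 and 784 on the irradiated arrays (-0.84 ± 0.18). In both genes every irradiated array was below every untreated one. Cyclins of this group moved less: Ccnb2 went from 4642 to 3148 (-0.56), and Ccna2 from 3632 to 2516 (-0.53). Mki67, the proliferation antigen, differed by -0.33, and Pttg1, securin, by 0.36 in the other direction. Of 35 DNA replication genes 30 lay below zero and 1 was called, Ccne2, the gene of cyclin E2, which fell from 399 ± 3.89 to 182 ± 0.141 (-1.06 ± 0.0096). The replication factors Pcna, Mcm5 and Mcm7 differed by 0.03, -0.04 and 0.02. Cdca7, a cell-division-associated gene among the 15 lowest called, went from 809 ± 38.7 to 309 ± 8.77.

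**Figure D2:**
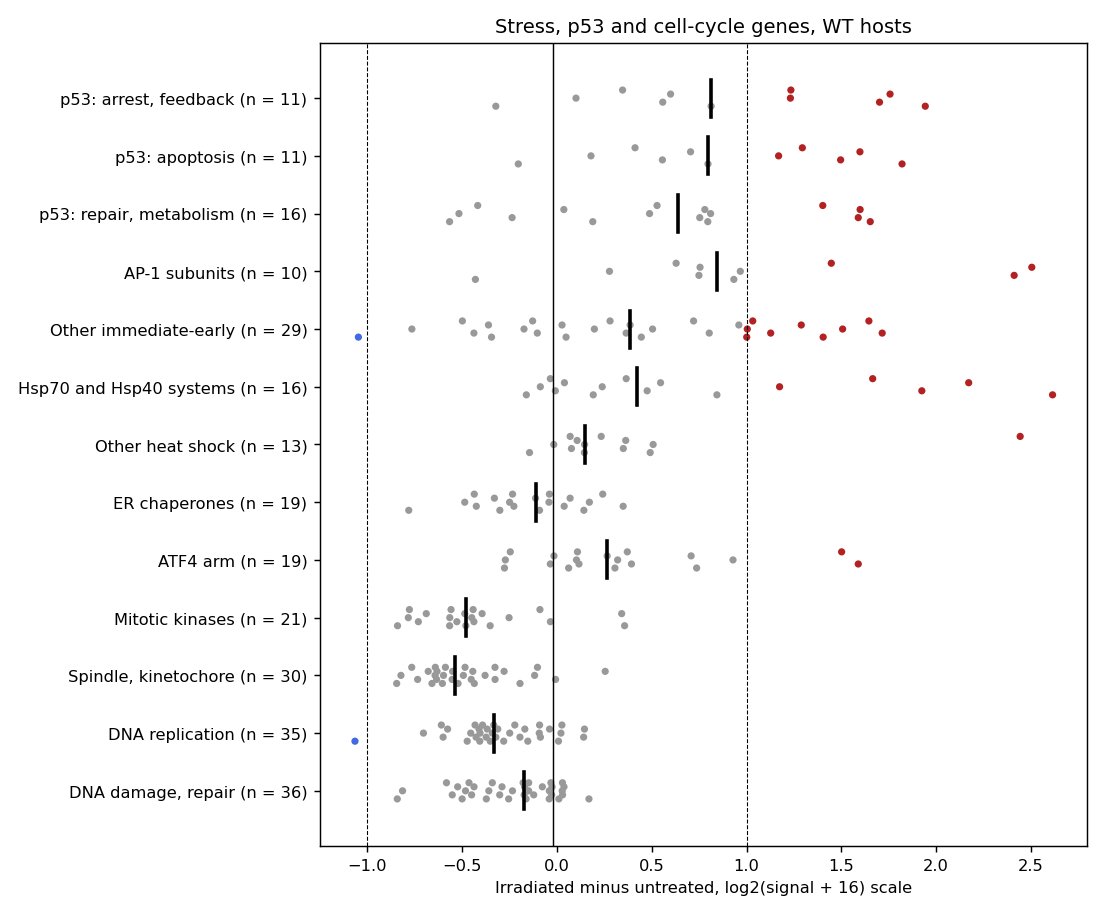
Difference for each tested member of the p53, immediate-early, heat shock, unfolded protein response, mitotic, replication and repair lists (horizontal axis, irradiated minus untreated, log2(signal + 16) scale), 1 row per group with its number of tested genes. Red points are called higher, blue lower and grey not called, black bars are group medians, the solid line is the median of all genes and dashed lines mark 2-fold. The p53 and AP-1 rows lie to the right and the mitotic rows to the left of the line.

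Immediate-early genes, which cells transcribe within minutes of a stimulus without new protein synthesis, were raised in part. Of 39 tested 12 were called higher and 1 lower, against 2.48% higher and 0.212% lower among all genes, with a median of 0.63. Among the AP-1 subunits, 3 of 10 rose. Fosb read 22.2 and 38.6 on the untreated arrays and 235 and 251 on the irradiated arrays, a rise of 5.67-fold from a dim level. Atf3, a stress-induced repressor of the same leucine zipper family, read 423 and 464 on the untreated arrays and 2452 and 2401 on the irradiated arrays (5.32-fold, difference 2.41 ± 0.067). Jun went from 890.05 ± 32.5 to 2454 ± 12.4 (2.73-fold), although another probe set of Jun gave 0.06. Fos, Junb and Jund went from 3018 to 5106, from 453 to 899.5 and from 8713 to 14658, and Fosl2 from 261 to 413, none called.

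Other early-response genes diverged. Klf4, a zinc finger regulator of differentiation, read 148 and 152 on the untreated arrays and 535 and 521 on the irradiated arrays (3.28-fold higher). Gadd45b and Gadd45g, growth arrest genes, rose 3.13-fold and 2.65-fold, Gadd45b having further probe sets at 0.35 and 1.21. Csrnp1, a nuclear protein of the AXIN1-induced family, went from 199 ± 26.4 to 595 ± 89.8, and the matricellular genes Ccn1 and Ccn2 from 956 to 2359 and from 698 to 1543. The endothelial-enriched regulator Klf2 rose by 1.03, but the call was lost without untreated array 1 (0.95). Dusp1, a phosphatase of MAP kinases, rose by 1.00, but the call was lost without untreated array 2 or irradiated array 1, with a lowest value of 0.96. Zfp36, which destabilises cytokine mRNAs, rose by 1.00 and lost its call without array 2 of either pool (0.92 at the lowest). Other serum-response genes were not higher: Egr1 went from 1379.8 to 1285, Nr4a1 from 4182 to 3833, Ier2 from 2244 to 1744 and Myc from 1526 to 1122. Dusp2 was the single member called lower, from 1332 ± 37.7 to 641 ± 106 (-1.05 ± 0.17), and the call was lost without irradiated array 1 (-0.88).

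Of 29 tested heat shock chaperones, which refold damaged proteins, 6 rose and 0 fell, against 2.48% higher among all genes. Those that rose were 5 of the 16 genes of the Hsp70 and Hsp40 systems and 1 of 13 of other families. Hspa1b, an inducible Hsp70, read 2287 and 2062 on the untreated arrays and 12047 and 14846 on the irradiated arrays (6.12-fold, difference 2.61 ± 0.17). Its near-identical neighbour Hspa1a went from 259 to 1212, and the probes may not tell this pair apart. Hspb1, a small chaperone, read 2408 and 2726 on the untreated arrays and 14398 and 13615 on the irradiated arrays (5.44-fold). The Hsp40 cochaperones Dnajb1, Dnaja4 and Dnajb4 rose 3.17-fold, 3.8-fold and 2.26-fold. The cytosolic Hsp70 gene Hspa8, the mitochondrial chaperonin gene Hspd1 and the Hsp90 gene Hsp90aa1 were not called and differed by 0.19, 0.08 and 0.36. The group median was 0.24 and turned to -0.02 with each array centred on its median. Of 19 chaperones and transducers of the endoplasmic reticulum (ER) stress response 0 were called. In a group of this size that is near the share over all tested genes, 2.69%. Their median was -0.11, and 1 was lower with each array centred on its median. Hspa5, the chief ER chaperone, differed by 0.04 ± 0.078. In the ATF4 arm 2 of 19 rose, against 2.48% higher among all genes. These were Sesn2 and Cebpb, the latter from 699 ± 4.81 to 2008 ± 24 (2.83-fold), while Ddit3, which encodes CHOP, differed by 0.31 and Atf4 by 0.06.

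Chemokine, cytokine and NF-kB inhibitor genes stood among the called genes. Cxcl1, Cxcl2 and Cxcl3 encode chemokines that draw neutrophils through the receptor CXCR2, Cxcl9 a chemokine for T cells, and Nfkbia and Tnfaip3 (A20) feedback inhibitors that NF-kB itself induces. The 130 bases upstream of their transcription starts are shown from RefSeq (GRCm38.p6), 5' to 3' on the strand of the gene, with capitals marking matches to the NF-kB motif on either strand. The motif searched was 3 G, any 2 bases, then 3 T and 2 C, or 3 G, any 2 bases, then 2 T and 3 C.
Cxcl1 (chr5:90891115-90891244, plus strand): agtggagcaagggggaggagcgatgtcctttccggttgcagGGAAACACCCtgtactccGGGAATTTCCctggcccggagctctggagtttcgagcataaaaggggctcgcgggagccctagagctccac
Cxcl2 (chr5:90903769-90903898, plus strand): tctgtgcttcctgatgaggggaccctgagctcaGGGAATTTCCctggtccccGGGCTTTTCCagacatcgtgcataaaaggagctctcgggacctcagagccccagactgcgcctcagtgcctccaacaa
Cxcl3 (chr5:90785971-90786100, plus strand): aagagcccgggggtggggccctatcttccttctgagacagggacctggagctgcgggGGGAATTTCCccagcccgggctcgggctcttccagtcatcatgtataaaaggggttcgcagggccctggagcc
Cxcl9 (chr5:92328080-92328209, minus strand): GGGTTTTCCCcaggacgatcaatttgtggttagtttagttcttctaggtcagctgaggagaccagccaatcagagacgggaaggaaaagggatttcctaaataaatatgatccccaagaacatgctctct
Nfkbia (chr12:55492648-55492777, minus strand): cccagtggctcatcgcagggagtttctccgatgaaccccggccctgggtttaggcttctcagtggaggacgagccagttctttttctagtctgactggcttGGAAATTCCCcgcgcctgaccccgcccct
Tnfaip3 (chr10:19015411-19015540, minus strand): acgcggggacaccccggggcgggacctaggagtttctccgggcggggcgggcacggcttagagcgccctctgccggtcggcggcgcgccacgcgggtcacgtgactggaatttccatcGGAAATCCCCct
The sequence GGGAATTTCC was common to Cxcl1, Cxcl2 and Cxcl3. The Nfkbia match GGAAATTCCC is the same sequence read on the opposite strand. Within 250 bases upstream the motif was found in 9 of the 20 called chemokine, cytokine and NF-kB genes that had a promoter in the table (Ccl9, Csf1, Cxcl1, Cxcl2, Cxcl3, Cxcl9, Il1rn, Nfkbia and Tnfaip3), in 5 of 27 tested but not called (Cxcl10, Cyld, Nfkb2, Rel and Tnip1) and in 3.25% of 27025 genes. The heat shock element, taken as GAA, TTC and GAA with any 2 bases between, was in 0 of 6 called chaperone promoters and 3 of 18 not called, against 0.514% of all genes, and the CRE TGACGTCA in 1 of 11 and 1 of 21 immediate-early promoters (Dusp1 and Maff), against 1.77%. A match describes letters and does not show binding, and no match says only that these letters are absent from this window.

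Of 37 tested chemokines, cytokines and their receptors, 19 rose, 0 fell and 18 were not called, with a median of 1.03. Among all genes 2.48% were higher. Of the neutrophil-attracting CXC ligands 4 of 5 rose. Cxcl2 read 1859.9 and 1699 on the untreated arrays and 6494 and 6493 on the irradiated arrays, 3.63-fold higher (1.86 ± 0.065). Cxcl3 went from 550.05 ± 44.6 to 3083 ± 636 (5.43-fold) and Cxcl1 from 349 ± 60.4 to 882 ± 65.2 (2.47-fold), each with both irradiated arrays above both untreated ones. Ppbp, the platelet basic protein precursor, rose 2.27-fold, and Pf4, platelet factor 4, differed by 0.80 and was not called. Among CC chemokines and receptors 8 of 11 rose, or 5 with each array centred on its median. Ccl3, which attracts monocytes and neutrophils, read 571 and 525 on the untreated arrays and 2057 and 2097 on the irradiated arrays, a rise of 3.71-fold. The related Ccl4 read 334 and 354 on the untreated arrays and 1139.9 and 1170.1 on the irradiated arrays, a rise of 3.25-fold, and in neither gene did the pools overlap. Ccl2, the chief monocyte chemoattractant, rose 2.2-fold (from 194 to 447), Ccl8 2.69-fold, Ccl6 2.77-fold and Ccl9 2.27-fold, and the shared receptor Ccr1 rose 2.49-fold. Ccl5 was called at 1.08 but lost without untreated array 2 (0.85). The interferon-induced ligands differed: Cxcl9 rose 3.53-fold (from 272 to 1000.4), while Cxcl10 differed by 0.45 and Cxcl11 by 0.75, neither called.

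In the group of interleukins, growth factors and related genes 6 of 16 were higher. Il1b, a central inflammatory cytokine, read 478 and 591 on the untreated arrays and 2304 and 2320.3 on the irradiated arrays (4.25-fold). Its decoy receptor Il1r2 and antagonist Il1rn rose 3.18-fold and 3.2-fold, although other probe sets of Il1rn gave 1.74 and 0.63. Ptgs2, cyclooxygenase 2, rose 3.39-fold and Csf3r, the granulocyte colony-stimulating factor receptor, 2.56-fold. Csf1, the macrophage growth factor, was called at 1.03 but lost without irradiated array 1 (0.90). Csf3, which encodes granulocyte colony-stimulating factor, went from 78.2 to 172, a difference of 1.00 that just missed the call. Il6 went from 7.3 to 68.5 and lay below the tested level.

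**Figure D3:**
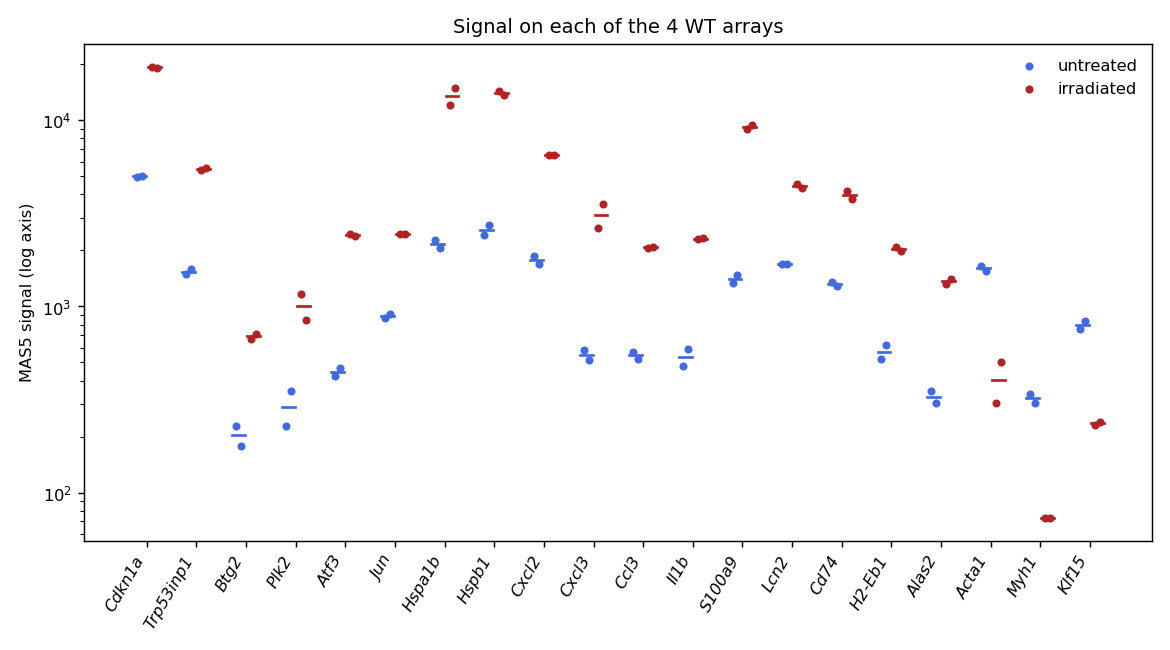
MAS5 signal (logarithmic axis) of 20 genes on each of the 4 arrays, untreated in blue and irradiated in red, with short lines for the pool means. Duplicates lie close together for some genes and further apart for others, such as irradiated Acta1 (303.9 and 504.5). The genes shown are called ones, and a call requires that the pools do not overlap, so their separation follows from the choice of genes.

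Within the NF-kB pathway 5 of 23 tested genes rose and 0 fell, against 2.48% higher among all genes. Tnf itself read 19.4 and 12.9 on the untreated arrays and 35 and 10.2 on the irradiated arrays, below the tested level. Tnfrsf1a, TNF receptor 1, read 2653 and 2752 on the untreated arrays and 3933 and 3816 on the irradiated arrays: the groups did not overlap, but the difference of 0.52 ± 0.034 was below 2-fold and not called. Tnfrsf1b, TNF receptor 2, read 225 and 158 on the untreated arrays and 451 and 380.3 on the irradiated arrays and was called at 1.07 ± 0.27, yet another bright probe set gave -0.58 and the call was lost without untreated array 2 or irradiated array 1 (lowest 0.84). Of 15 subunits and feedback inhibitors 3 rose and 12 were not called. Those that rose were Nfkbia from 4758 ± 265 to 10694 ± 443 (2.24-fold), Tnfaip3 from 191 to 539.6 and Nfkbiz from 311 to 756. The apoptosis inhibitor Birc3 rose 2.22-fold. Of the whole pathway, 1 gene rose with each array centred on its median and 2 when all probe sets of a gene were averaged. The subunits Rela, Nfkb2, Rel and Relb differed by 0.13, 0.08, 0.38 and 0.39, none called. Of toll-like receptors and adaptors 3 of 14 rose (1 after that centring), with Cd14, the co-receptor for bacterial lipopolysaccharide, from 416 ± 50.5 to 2302 ± 67.4 (5.38-fold), and Tlr4 at -0.18. Irak3 (1.15) lost its call without untreated array 2 (0.84), and Tlr2 (1.11) without array 2 of either pool (0.94 at the lowest).

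Genes of neutrophils and the acute phase had the highest median difference of the 34 lists. Of 22 tested 13 rose and 0 fell (median 1.27), against 2.48% higher among all genes. Those that rose were 10 of 14 in the neutrophil group and 3 of 8 in the acute-phase group. S100a8 and S100a9 encode the subunits of calprotectin, an abundant protein of the neutrophil cytoplasm. S100a8 read 2047 and 2314 on the untreated arrays and 13659.9 and 14076 on the irradiated arrays, a rise of 6.33-fold. S100a9 read 1331 and 1477 on the untreated arrays and 9008 and 9436 on the irradiated arrays, a rise of 6.51-fold, with duplicates close together in both pools. Hdc, histidine decarboxylase, expressed by mast cells and neutrophils, read 9.6 and 43 on the untreated arrays and 401 and 372 on the irradiated arrays, the highest called difference among the tested genes at 3.37 ± 0.60, although its untreated arrays were themselves unequal. Clec4e, a C-type lectin receptor, rose 4.94-fold, Mmp9, gelatinase B, 3.01-fold, Fpr2, a formyl peptide receptor, 2.7-fold, and Lcn2, an iron-binding acute-phase protein, 2.61-fold (from 1688 to 4435). The lectin receptor gene Clec4d, the granule protein gene Ngp, the stefin gene Stfa2l1 and Ifitm6 rose 2.66-fold, 2.38-fold, 2.52-fold and 2.86-fold, whereas Mmp8 and Trem1 differed by 0.86 and 0.88 and were not called. Hp (haptoglobin) was called at 1.30 and lost without untreated array 2 (0.99), and Steap4 at 1.14 without untreated array 1 (0.82). Beside these, the 20 neutrophil genes on the array summed to 4932 to 5448 untreated and 27216 to 28254 irradiated, 5.34 times as high. S100a8 and S100a9 made up most of this sum, with means of 2180 and 1404 untreated and 13868 and 9222 irradiated. Of the 20 genes 18 were higher on average and 6 lay below the tested level in both pools. The part of the neutrophil genes in the other inflammatory changes was not tested.

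Part of the genes of macrophages and of antigen presentation also rose. Of 29 macrophage markers 9 were called higher, 5 of 20 lineage and 4 of 9 activation genes, against 2.48% among all genes. With each array centred on its median 4 were, 2 of each kind. The lineage genes C1qb, a complement subunit made by macrophages, and Tyrobp, a signalling adaptor, rose 2.34-fold and 2.58-fold, as did the Fc receptor Fcgr3 (2.34-fold), whereas Adgre1 (F4/80) differed by 0.41 and Csf1r by 0.65. Retnla, a product of alternatively activated macrophages, read 18.3 and 16.2 on the untreated arrays and 169 and 272 on the irradiated arrays (6.95-fold from a dim level), and Arg1, arginase, rose 2.18-fold. Acod1, which makes itaconate in activated macrophages, rose 3.34-fold. Msr1 was called at 1.03 but lost its call without untreated array 1 or irradiated array 2 (0.61 at the lowest). The summed lineage signal was 14577 to 14638 on the untreated and 26603 to 27258 on the irradiated arrays (1.84 times). Of the 21 genes 19 were higher on average and 1 lay below the tested level in both pools.

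MHC class II genes rose in 6 of 7 tested, against 2.48% higher among all genes, or 3 with each array centred on its median. H2-Eb1, a class II beta chain, read 523 and 620.3 on the untreated arrays and 2099 and 1978 on the irradiated arrays (3.51-fold), and H2-DMa and Cd74, which load peptide and escort class II molecules, rose 3.31-fold and 2.99-fold. The alpha chain H2-Aa and the protease Ctss, which trims the class II chaperone, rose 2.34-fold and 2.25-fold. Of 12 class I and peptide-loading genes 4 rose (2 after that centring): the transporter Tap1 2.73-fold, the transactivator Nlrc5 2.71-fold and the immunoproteasome subunits Psmb8 and Psmb9 2.19-fold and 2.17-fold. The heavy chains H2-K1 and H2-D1 and the light chain B2m differed by 0.65, 0.61 and 0.53. Interferon-responsive genes rose in 6 of 44 (median 0.49), against 2.48% higher among all genes, with 41 of the 44 above zero. Isg20, a nuclease, read 178 and 257 on the untreated arrays and 646 and 638 on the irradiated arrays (2.86-fold), Gbp2, a guanylate-binding protein, rose 2.64-fold, Irf7 2.37-fold and Zbp1, a nucleic acid sensor, 2.43-fold. Classical targets were smaller: Ifit1 0.95, Rsad2 0.51, Mx1 0.50 and Stat2 0.03, none called. Lymphocyte genes lay mostly below the tested level, 11 of 15 T and NK and 3 of 6 B genes in both pools. On average 14 of the 15 T and NK genes were higher, and their summed signal went from 733 to 1188 (1.62 times). Of the 6 B genes 4 were higher, with a sum 1.37 times as high. Prf1 and Gzmb, effectors of cytotoxic cells, differed by 0.77 and 0.87, and Cd8a by 0.41, none called.

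**Figure D4:**
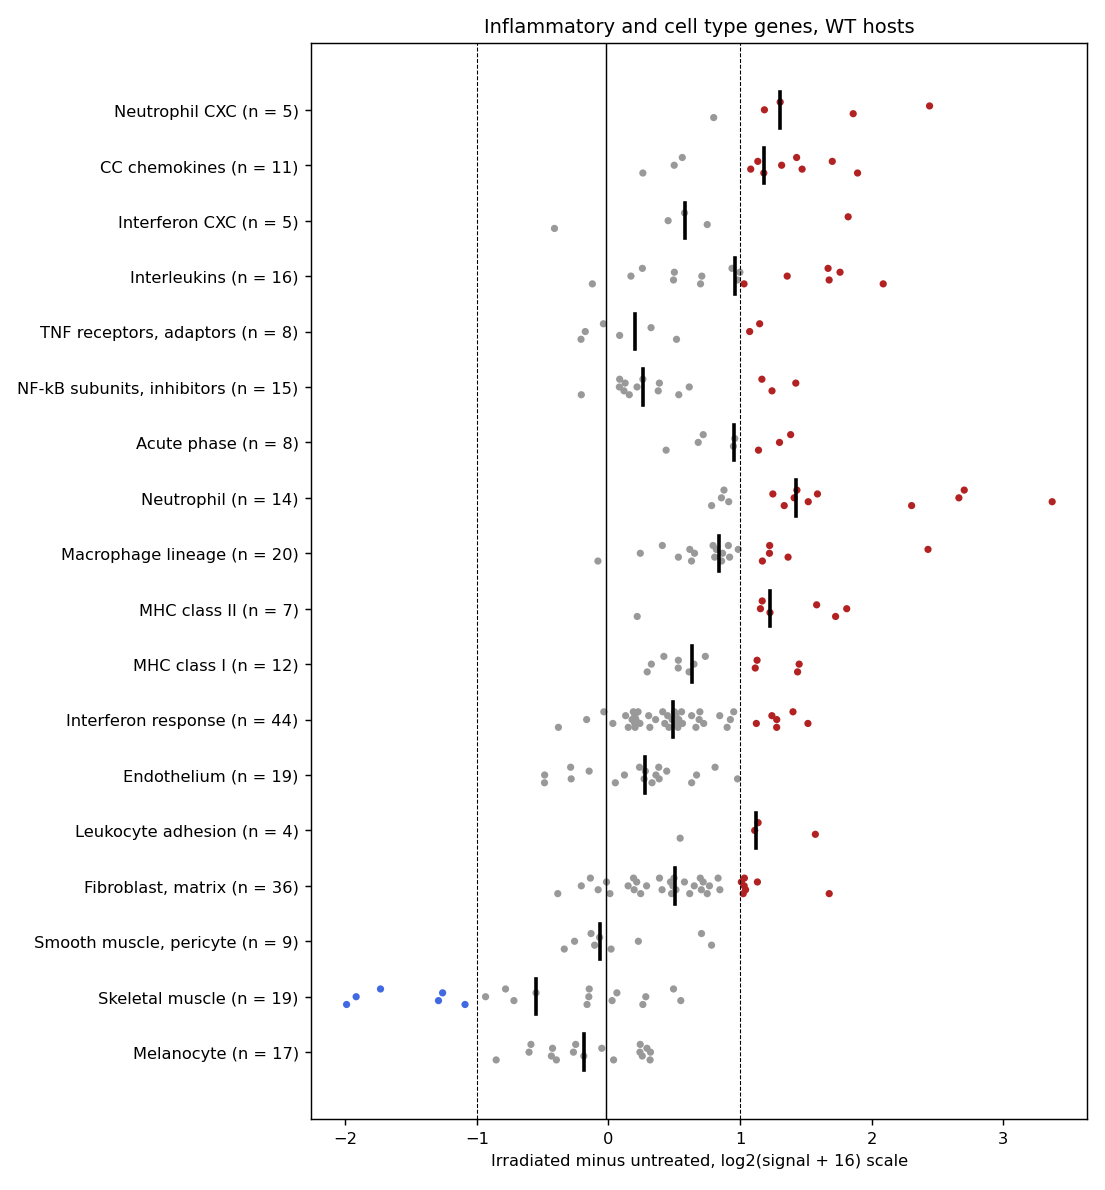
Difference for each tested member of the inflammatory and cell type lists (horizontal axis, irradiated minus untreated, log2(signal + 16) scale), 1 row per group with its number of tested genes. Red is called higher, blue lower and grey not called, black bars are medians, the solid line is the median of all genes and dashed lines mark 2-fold. Neutrophil genes, chemokines and MHC class II genes lie to the right, and skeletal muscle genes to the left.

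Of the genes that mark vessels, 0 of 19 tested members of the endothelial lineage were called. In a group of this size that is near the share over all tested genes, 2.69%. Of the 19 genes 14 lay above zero, with a median of 0.28, or 0.02 with each array centred on its median. Cdh5, the endothelial cadherin, differed by 0.81, Pecam1 by 0.28 and Kdr, VEGF receptor 2, by -0.48, and the summed signal was 10917 to 11841 and 12711 to 14004. Of the leukocyte adhesion genes 3 of 4 rose, or 1 with each array centred on its median. Icam1 read 132 and 108 on the untreated arrays and 403 and 372 on the irradiated arrays (2.97-fold), Selplg, the P-selectin ligand on leukocytes, rose 2.16-fold, and Vcam1 was called at 1.14 but lost without untreated array 1 or irradiated array 2 (0.98 at the lowest). Among angiogenic factors 4 of 11 rose (2 after that centring), with Pgf, placental growth factor, from 527 ± 56.3 to 1693 ± 14.8 (3.16-fold) and Angptl4 from 202 ± 1.13 to 693 ± 29.3 (3.24-fold). Edn1 (without untreated array 1) and Pdgfa (without untreated array 2) lost their calls, at 0.93 and 0.89, and Vegfa differed by 0.25.

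Matrix genes rose in 7 of 36, against 2.48% higher among all genes. The count of matrix genes was unstable, at 3 without untreated array 1, 3 without irradiated array 1 and 1 with each array centred on its median. Thbs1, thrombospondin 1, a matrix protein that limits vessels, went from 210.1 ± 7.07 to 707 ± 12.2 (3.2-fold), and Lox, a collagen cross-linking enzyme, from 71.6 to 175. Col5a2, Tnc, Dcn, Mmp3 and Mmp13 passed at 1.02, 1.03, 1.04, 1.01 and 1.03 and each lost its call without at least 1 array, with lowest values of 0.91, 0.95, 0.91, 0.90 and 0.74. The collagen genes Col1a1 and Col3a1 differed by 0.62 and 0.70. None of the 9 smooth muscle and pericyte genes was called, where 2.69% of all tested genes were, with Acta2 at -0.07 and Rgs5 at -0.10.

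Skeletal muscle genes fell in 6 of 19 tested, against 0.212% lower among all genes, and in 3 when all probe sets of a gene were averaged. Acta1, skeletal alpha-actin, read 1658 and 1552 on the untreated arrays and 304 and 504 on the irradiated arrays, the lowest called difference among the tested genes (-1.99 ± 0.35). Tnnt3, fast troponin T, whose mean level lay below the tested level, went from 134 to 21.6 (-2.11). Myh1, a fast myosin heavy chain, went from 321 ± 23.3 to 73.2 ± 0.283, Tnnc2, fast troponin C, from 367 ± 11.2 to 101 ± 22.7, and Ckm, muscle creatine kinase, from 459.6 ± 29.8 to 178 ± 4.53. Actn3 lost its call without irradiated array 1 (-0.79) and Tnni2 without irradiated array 2 (-0.81). The summed signal of the 33 genes on the array was 8516 to 8526 untreated and 5407 to 5417 irradiated, 0.635 times. On average 9 of the 33 were higher, and 6 of the 19 tested lay above zero, up to 0.55. In the metabolic and calcium group the median was -0.15 and 1 of 8 was called. Of the 33 genes 25 reached the tested level in the untreated and 18 in the irradiated pool, and 8 lay below it in both. Whether the pools differed in adjoining muscle was not tested. Car3, carbonic anhydrase 3 of muscle and fat, fell from 207 ± 9.83 to 46.1 ± 0.495. Erythroid genes rose in 2 of 7, against 2.48% higher among all genes. Alas2, the haem synthesis enzyme of red cell precursors, went from 326 ± 35.2 to 1364 ± 57.1 (4.04-fold), and Hbb-b2 was called at 1.53 but another probe set gave -0.21. Keratinocyte genes were mostly below the tested level, 14 of 19 in both pools, and none of the 3 tested was called.

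**Figure D5:**
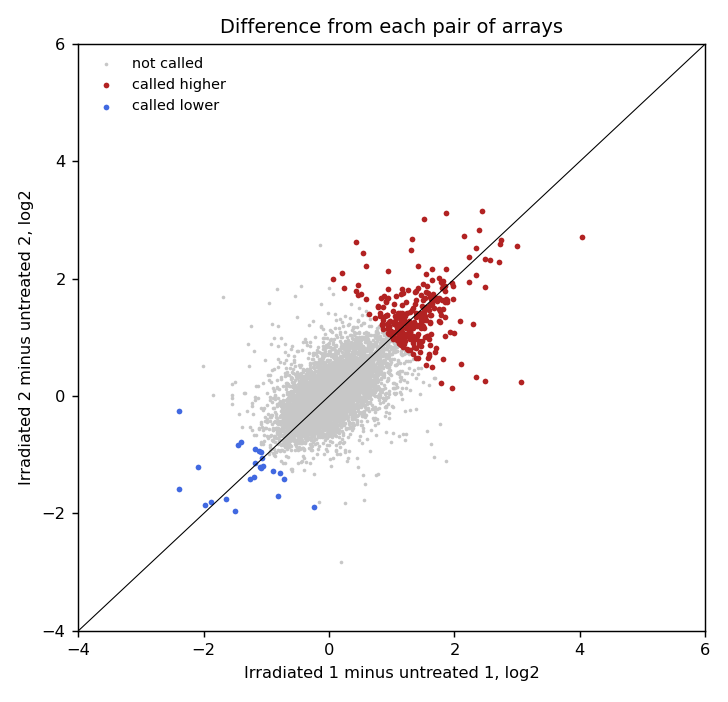
Difference computed from the first array of each pool (horizontal axis) against that from the second (vertical axis), log2, for the 11339 genes tested, with the line of equality. Red genes are called higher and blue lower, and 185 of the 281 higher and 13 of the 24 lower calls are 2-fold in both pairs.

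Of 31 hypoxia and glycolysis genes 0 were called, against 2.69% of all tested genes. The glucose transporter Slc2a1 differed by 0.98, Ldha by 0.25 and Car9 by 0.29. Of the 31 genes 27 lay above zero, with a median of 0.28, or 0.02 with each array centred on its median. Of 19 antioxidant genes under NRF2 only Hmox1, haem oxygenase 1, was called (1.02), and it was lost without untreated array 2 or irradiated array 1 (0.98). Of 12 tested glucocorticoid-responsive genes 2 rose, Angptl4 and Lcn2 (1.70 and 1.38), and 1 fell. That was Klf15, a transcription factor, which went from 799 ± 59 to 235 ± 4.6 (-1.70 ± 0.076), whereas Fkbp5 and Tsc22d3, which glucocorticoids also induce, differed by -0.17 and 0.24. Among clock genes Nfil3 was called at 1.01 and lost without untreated array 1 or irradiated array 2 (0.83), and Per1 and Dbp differed by 0.37 and -0.13. All 7 tested complement genes lay above zero, with a median of 0.66. Serping1, the C1 inhibitor, was the single one called (1.03), lost without untreated array 1 (0.98). None of the 19 apoptosis regulators of a separate list, 15 TGF-beta pathway, 23 ribosomal protein, 29 oxidative phosphorylation or 28 proteasome genes was called. In lists of these sizes, and in the other lists above with 0 calls, that count is near the share over all tested genes, 2.69%. The ribosomal genes had a median of 0.28, with 22 of the 23 above zero, but the median was 0.02 with each array centred on its median.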

How the data were processed

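The deposited values were linear signal intensity from MAS5, which the submitters' processing notes name with no version. The 2%-trimmed mean was 500 on each array, so the authors had scaled the arrays to a common target. From these values log2(signal + 16) was computed for the 4 wild-type arrays, and the pools were compared by their mean. Of 45101 probe sets 64 were controls, 34945 named 1 gene, 932 several and 9160 none in the array annotation, which dates from 2016. Gene identifiers of 34741 were found in a RefSeq table (GRCm38.p6) and 0 symbols changed. For each of 18193 genes the brightest probe set naming it alone was kept, and the 11339 with a mean log2 of at least 6.365 (a signal of 66.4, the median of all probe sets) were tested.

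Differences were described and not tested, since each group holds 1 RNA pool, and limma against the duplicate spread, with a Benjamini-Hochberg adjusted p under 0.05, served as an alternative. The 34 gene lists (1009 symbols, 923 on the array, 776 tested) and the rules were chosen with earlier results of these data known, and support nothing as independent evidence. Named genes were Cdkn1a, Mdm2, Ccng1, Tnf, Tnfrsf1a and Tnfrsf1b, the 15 highest and 15 lowest called differences, up to 6 called members of each list, and further list members with their values. The 4 arrays from hosts lacking TNF receptors were not used. Scripts were tested on simulated data. Alternatives covered scaling, pseudocount, fold threshold, filter, probe set choice and each array left out. Software was R 4.3.3, limma 3.58.1, Python 3.11.15, pandas 2.3.3, numpy 2.4.6 and matplotlib 3.10.9.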

Additional observations from a re-analysis of the deposited data

Results flagged for a closer look

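The control transcripts outside the comparison differed between the pools. These poly-A spike-ins are bacterial transcripts added before labelling, and irradiated signals were 1.61 times the untreated for dap, 2.11 times for lys, 2.10 times for phe and 2.03 times for thr, over 3 probe sets each. The hybridisation controls, which enter after labelling, read 1.19 times (bioB), 1.21 times (bioC), 1.26 times (bioD) and 1.25 times (cre), and 18S ribosomal RNA 1.16 times. In every one of these sets both irradiated arrays lay above both untreated ones. The part of these differences in the gene results was not tested.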

How the results depend on the processing

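The comparison rests on 1 RNA pool per group, so no setting measures the spread between mice or pools, and 2 arrays per pool limit the precision. Dim genes have signals near the pseudocount, and their differences depend on it. Each alternative below was computed over the same 4 arrays except where an array was left out, and those differing from the main counts (2244 probe sets, 305 genes, 281 higher and 24 lower) or from the counts of the 13 lists followed through every alternative by over 1.5 times are given. The other lists were recounted only with each array centred. After quantile normalization, the count that moved was 4 matrix genes higher. With each array centred on its median, the counts that moved were 140 genes higher, 114 genes lower, 1 NF-kB pathway gene higher, 3 MHC class II genes higher, 2 MHC class I genes higher, 4 macrophage genes higher, 1 matrix gene higher and 6 mitotic genes lower. With no pseudocount, the counts that moved were 6609 probe sets and 37 genes lower. With a pseudocount of 64, the counts that moved were 331 probe sets, 173 genes, 163 genes higher, 10 genes lower, 3 NF-kB pathway genes higher and 1 matrix gene higher. At 1.5-fold, the counts that moved were 7502 probe sets, 1116 genes, 812 genes higher, 304 genes lower, 22 p53 target genes higher, 20 immediate-early genes higher, 21 acute-phase and neutrophil genes higher, 7 MHC class I genes higher, 15 interferon genes higher, 21 macrophage genes higher, 16 matrix genes higher and 18 mitotic genes lower. At 3-fold, the counts that moved were 282 probe sets, 73 genes, 67 genes higher, 6 genes lower, 8 p53 target genes higher, 4 immediate-early genes higher, 0 NF-kB pathway genes higher, 9 chemokine and cytokine genes higher, 5 acute-phase and neutrophil genes higher, 2 MHC class II genes higher, 0 MHC class I genes higher, 0 interferon genes higher, 3 macrophage genes higher, 1 matrix gene higher and 3 muscle genes lower. With limma against the duplicate spread and no replicate block, the count that moved was 0 probe sets. With limma and the replicate number as a block, the counts that moved were 0 probe sets, 14 genes lower, 3 matrix genes higher and 3 muscle genes lower. Over bright probe sets only, the count that moved was 581 probe sets. Without the filter on dim genes, the counts that moved were 861 genes, 764 genes higher and 97 genes lower. With the filter at the 75th percentile, the counts that moved were 107 genes, 100 genes higher, 7 genes lower, 7 immediate-early genes higher, 2 NF-kB pathway genes higher, 12 chemokine and cytokine genes higher, 4 acute-phase and neutrophil genes higher, 1 matrix gene higher and 1 muscle gene lower. Averaging all probe sets per gene, the counts that moved were 14 genes lower, 2 NF-kB pathway genes higher, 3 matrix genes higher and 3 muscle genes lower. Among the lists and groups recounted only with each array centred, those whose counts moved by over 1.5 times were p53 arrest and feedback (5 to 3 higher), immediate-early genes outside AP-1 (9 to 5 higher, 1 to 2 lower), CC chemokines (8 to 5), TNF receptors and ligands (2 to 0), NF-kB subunits and inhibitors (3 to 1), interferon GTPases (2 to 1), macrophage lineage (5 to 2) and activation (4 to 2), leukocyte adhesion (3 to 1), collagens (1 to 0) and other matrix (6 to 1), angiogenic factors (4 to 2), toll-like receptors (3 to 1), antioxidant, clock and complement genes (1 to 0 each), and, lower, repair genes (0 to 2), ER chaperones (0 to 1), melanocyte genes (0 to 1), mitotic kinases (0 to 3) and spindle genes (0 to 3). Leaving out each array in turn gave 3242 to 3833 probe sets, 30 to 51 genes lower, 3 to 7 matrix genes higher and 0 to 1 mitotic genes lower. The heat shock median was -0.0188 with each array centred on its median, Hbb-b2 was -0.214 without cross-hybridising probe set classes, and Mecom 0.195 with the mean of its probe sets, each a change of direction whose cause was not tested. In limma 8046 probe sets had an unadjusted p under 0.05 and 0 passed adjustment, 6075 and 0 with the block. Among genes, 258 were called without and 207 with the block. The duplicate numbers did not pair the pools: across genes the differences between duplicates correlated at -0.0301 between the untreated and the irradiated pool. With quantile normalization 87.5% of the calls were higher, against 92.1%.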

Other observations

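Outside the 34 lists 179 genes were called, 165 of them higher. The genes below were chosen after their values were seen, so they are descriptions only. Several belong to leukocytes. Srgn, the serglycin proteoglycan of leukocyte granules, went from 1449.5 ± 128 to 6721 ± 292. The leukocyte genes Slpi, Alox5ap, Cd53, Rac2, Ncf4 and Plek differed by 1.41, 1.24, 1.35, 1.16, 1.30 and 1.39. Wfdc17 and Wfdc21, of the same protease inhibitor family as Slpi, went from 574 to 2137 and from 134 to 531, and Lrg1, an acute-phase glycoprotein, from 33.3 to 168. Ebi3, a subunit of interleukin 27 and 35, rose by 1.68, Il18bp, which neutralises interleukin 18, by 1.47, and Cxcl13, the B cell chemokine, by 1.54. Serpinb2, a plasminogen activator inhibitor, rose 3.5-fold.

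Genes connected with DNA damage or p53 outside the fixed list rose too. Gtse1, a G2 phase regulator that restrains p53, went from 712 ± 97.4 to 1712 ± 29.5, in contrast to the mitotic genes. Ddias, a DNA damage-induced apoptosis suppressor, rose by 1.19, Zfp365, which acts in genome stability, by 1.59, and Zfp385a, a p53 cofactor, by 1.46. The histone genes H2ac19 and H1f2 rose by 1.39 and 1.19. Upp1, uridine phosphorylase, rose by 1.63 and Sphk1, sphingosine kinase, by 1.53. The uncharacterised 1700007K13Rik read 198 and 257 on the untreated arrays and 1696 and 1591 on the irradiated arrays. Rhbdf2, a regulator of TNF release, and Asprv1 were called at 2.49 ± 0.71 and 2.27 ± 0.98, with unequal duplicates.

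Among the 24 genes called lower, Irf4, a transcription factor, and Dock10, a guanine nucleotide exchange factor, went from 147 to 57.2 and from 596 to 267. Mecom was called at -1.16, but the mean of its probe sets gave 0.195. B4galt4, Slc43a1 and Cpne5 were called at -1.65, -1.33 and -1.14 and lost their calls without 1 array. Among 2499 bright probe sets that name no gene or several, 95 were higher and 4 lower. The median difference depended on the level of the gene: 0.22 in the dimmest 10% of tested genes, -0.11 in the eighth 10% and 0.09 in the brightest 10%.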
